A study of Mus musculus with 8 samples.

Results

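Integrins are the adhesion receptors with which T cells hold on to other cells and to extracellular matrix, and their mRNAs were followed here in mouse CD8+ T cells treated with GC7 (N1-guanyl-1,7-diaminoheptane), an inhibitor of deoxyhypusine synthase, the enzyme that starts the conversion of a lysine of the translation factor eIF5A into hypusine. The 10 chains described in depth are 5 alpha chains, *Itga2*, *Itga4*, *Itga7*, *Itgae* and *Itgal*, and 5 beta chains, *Itgb1*, *Itgb2*, *Itgb3*, *Itgb5* and *Itgb7*, out of 55536 annotated genes, of which 11189 were abundant enough to be tested. They were selected with the GC7 against mock difference already known, so their levels and differences are given as a description, with no p-value. Each symbol was matched to its Ensembl gene identifier in the count files, and all 10 were found and tested.

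Mock and GC7 libraries numbered 4 each, and both groups were the same kind of cell: lymph node cells of C57BL/6 mice with the OT-1 T cell receptor transgene on a Rag-1KO background and a CD45.1 or CD45.2 congenic marker, aged 5 to 12 weeks. Because this receptor recognises the ovalbumin peptide SIINFEKL, all cultures were activated with 100 nM of that peptide for 2 days and expanded in 20 ng/ml IL-2 for 2 more days. During the IL-2 step the GC7 cultures received 10 µM GC7 and the mock cultures the same volume of the vehicle, a 10 mM acetic acid solution. The cells were a culture of 1 T cell receptor specificity. The paper calls the 4 cultures of a group biological replicates. Nothing in the sources states that these cultures came from separate mice, so the errors measure the spread between cultures.

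Each integrin is a pair of 1 alpha and 1 beta chain, and most chains reach the cell surface only as a pair. In T cells alphaL with beta2 forms LFA-1, the receptor for ICAMs that holds the T cell to its target. Alpha4 with beta1 forms VLA-4, which binds VCAM-1 and fibronectin, and alpha4 with beta7 binds MAdCAM-1 in gut vessels. AlphaE, also called CD103, pairs with beta7, and the pair binds E-cadherin on epithelium. Integrins at rest bind weakly, and signals inside the cell that bring Rap1, talin and kindlin to the beta chain switch them to the binding state.

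Library totals lay between 17528776 and 25284730 counted reads, so that the minimum for testing, 3 CPM (reads of a gene relative to all reads of its library), stood for 52.6 to 75.9 reads. Mock replicate 2 and GC7 replicate 3 stood apart from the other libraries of their groups, and values without both are given where they matter. All 8 CD8 T cell markers were detected, at a summed 4774 to 5597 CPM in mock and 3959.5 to 4299.9 CPM in GC7 libraries. At the false discovery rate used below, 5 of the 8 were called lower and 1, *Cd8a*, was called higher with GC7. Over all tested genes, 23.5% and 23.0% received these calls. In 7 of the 8 markers every GC7 library was below every mock library. These 7 included *Cd8b1* (log2 fold change -0.18) and *Cd3d* (-0.27), which were not called. The median log2 fold change of the 8 markers was -0.32, beside 0.02 over all tested genes. *Cd8a* differed by 0.48 on the log2 scale (adjusted p = 3.4e-05, edgeR quasi-likelihood test). Of the markers of other cells, Clec9a (dendritic cells), Pf4, Ppbp and Gp6 (platelets), Ms4a1 and Pax5 (B cells), and Col3a1 and Cdh5 (stroma and endothelium) were at 0 in every library. The myeloid list summed to 8.62 to 11.3 CPM in mock and 5.84 to 9.76 CPM in GC7. Most of this was *Cd68*, at 8.94 and 7.37 CPM on average, and the other 9 myeloid genes stayed under 1 CPM in every library. The platelet list summed to 4.91 to 6.03 and 5.18 to 6.16 CPM, and the NK cell list to 0.185 to 0.449 and 0.499 to 1.18 CPM. The B cell list summed to 6.98 to 10.1 and 4.6 to 5.9 CPM, mostly *Cd79b*, at 7.45 and 4.39 CPM on average. *Cd79b* had a log2 fold change of -0.76 (adjusted p = 0.00101, edgeR quasi-likelihood test). The stromal and endothelial list summed to 51.2 to 56.3 CPM in mock and 30.5 to 32.5 CPM in GC7, nearly all of it *Pecam1*, which T cells also carry and which differed by -0.80 (adjusted p = 4.3e-07). The part of these marker levels in the integrin differences was not tested, and in bulk RNA fewer cells of a type and less RNA per cell cannot be told apart.

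With GC7, 7 of the 10 chains were lower at a false discovery rate (FDR) of 0.01, a call that 23.5% of all tested genes received, and 6 of these 7 were lower by more than 2-fold, against 5.31% of all tested genes. The chain called higher was *Itga4*, against 23.0% of all tested genes, and it stayed under the 2-fold threshold that 3.17% of tested genes passed upwards. *Itgal* and *Itgb1* passed neither threshold. The median log2 fold change of the 10 chains was -1.15, beside 0.02 over all tested genes. In 7 chains every GC7 library was below every mock library and in 1 every GC7 library was above, patterns shown by 27.6% and 28.0% of tested genes. Because the chains were selected on this same contrast, nothing is read from these counts.

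**Figure D1:**
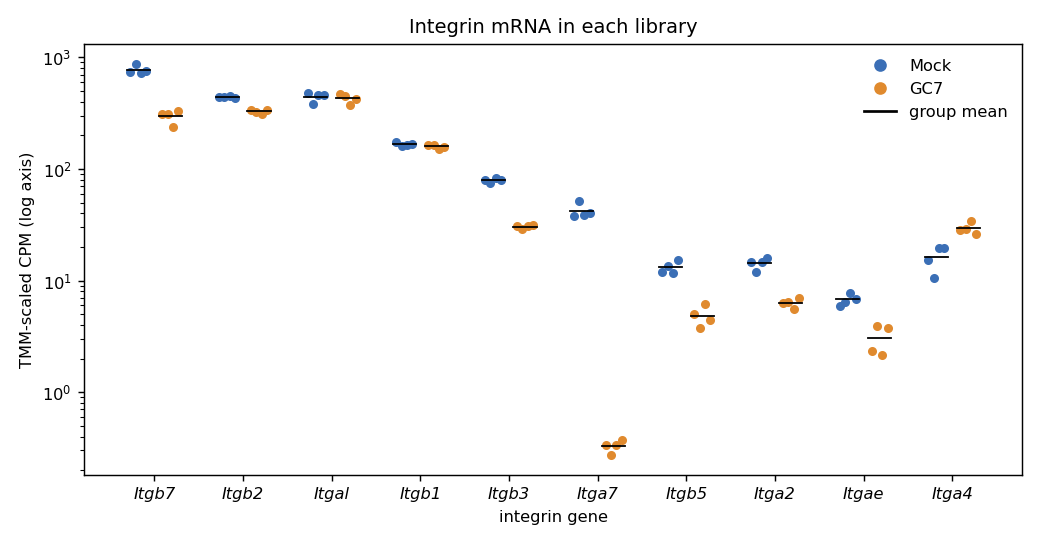
Level of each integrin mRNA in every library, as TMM-scaled CPM on a log axis, with mock and GC7 points and a line at each group mean. *Itga7* lies at 37.8 to 52 CPM in mock and at 0.272 to 0.374 CPM in GC7 libraries, whereas the points of *Itgal* and *Itgb1* overlap.

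LFA-1 showed a difference in its beta chain and none past the threshold in its alpha chain. *Itgal* (ENSMUSG00000030830, GRCm38 chr7:127296260-127335138, plus strand) encodes alphaL and was at 478, 379, 458 and 459 CPM in mock replicates 1 to 4 and at 474, 449, 375 and 422 CPM in GC7 replicates 1 to 4. The lowest value of each group belonged to the library that stands apart, and the groups overlapped. The log2 fold change (GC7 minus mock, from the edgeR fit) was -0.04 ± 0.0902 (SE, n = 4 per group), and its sign turned when libraries were scaled by their totals (0.05) or when GC7 replicate 3 was left out (0.01). *Itgb2* (ENSMUSG00000000290, chr10:77530252-77565708, plus strand) encodes beta2, the partner of alphaL and of the myeloid alpha chains. It was at 443, 443, 450.1 and 432 CPM in mock and at 336, 326, 314 and 337 CPM in GC7 libraries. The groups did not overlap, and *Itgb2* was 1.35-fold lower with GC7 (442 ± 7.25 against 328 ± 10.5 CPM, SD), a log2 fold change of -0.43 ± 0.0556. A stretch of 228 bases of *Itgb2* was 96.5% identical to *Gm14699*, which was too low to be tested.

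The beta7 chain was the most abundant integrin mRNA per length in mock cells, and with GC7 both it and its partner alphaE were lower while its other partner, alpha4, was higher. *Itgb7* (ENSMUSG00000001281, chr15:102215995-102231944, minus strand) was at 732, 880.1, 719 and 752 CPM in mock and at 310.0, 312, 238 and 334 CPM in GC7 libraries. The groups lay far apart, with the highest mock value and the lowest GC7 value in the libraries that stand apart. *Itgb7* was 2.58-fold lower with GC7 (771 ± 74.1 against 299 ± 41.6 CPM), a log2 fold change of -1.37 ± 0.105 that became -1.20 without both of those libraries. *Itgae* (ENSMUSG00000005947, chr11:73090583-73147446, plus strand) was low throughout, at 5.92, 6.47, 7.79 and 6.88 CPM in mock and 2.32, 3.94, 2.16 and 3.78 CPM in GC7 libraries. No GC7 library reached the lowest mock library, and the difference was 2.22-fold (6.76 ± 0.788 against 3.05 ± 0.937 CPM; log2 fold change -1.13 ± 0.191). GC7 replicates 1 and 3 of *Itgae* were under the 3 CPM minimum.

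*Itga4* (ENSMUSG00000027009, chr2:79255426-79333123, plus strand) encodes alpha4, shared by VLA-4 and alpha4-beta7. It was at 15.4, 10.6, 19.5 and 19.6 CPM in mock and at 28.5, 28.9, 34.2 and 26.2 CPM in GC7 libraries. Every GC7 library was above every mock library, with the lowest mock and highest GC7 values again in mock replicate 2 and GC7 replicate 3. The level was 1.81-fold higher with GC7 (16.3 ± 4.26 against 29.4 ± 3.4 CPM), a log2 fold change of 0.86 ± 0.163 that became 0.62 without both libraries. *Itga4* shares 905 exon bases with *Cerkl* on the opposite strand, and since the strand setting of the counting was not given, reads of the pair cannot be told apart there; *Cerkl* had at most 73 reads in a library and was not tested.

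The beta1 chain, the most widely paired of the integrin beta chains, was at like levels in both groups, and both *Itga2* and *Itga7*, whose proteins pair with beta1, were lower with GC7. *Itgb1* (ENSMUSG00000025809, chr8:128685654-128733200, plus strand) was at 174, 160.5, 164 and 166 CPM in mock and at 165, 165, 151 and 157 CPM in GC7 libraries. The groups overlapped, and the log2 fold change of -0.06 ± 0.0573 turned to 0.04 when libraries were scaled by their totals. *Itga2* (ENSMUSG00000015533, chr13:114833081-114932100, minus strand), which encodes the alpha chain of a collagen receptor, was at 14.8, 12, 14.6 and 16 CPM in mock and at 6.29, 6.47, 5.6 and 6.94 CPM in GC7 libraries. The groups were separate, and *Itga2* was 2.27-fold lower (14.4 ± 1.7 against 6.33 ± 0.554 CPM; log2 fold change -1.17 ± 0.115).

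*Itga7* (ENSMUSG00000025348, chr10:128933818-128958282, plus strand) encodes alpha7, a laminin receptor chain best known from muscle, and showed the largest difference of the 10 chains. Its read counts were 741, 1228, 827 and 817 in mock and 7, 6, 6 and 9 in GC7 libraries. These are 37.8, 52, 38.3 and 40.7 CPM against 0.339, 0.272, 0.333 and 0.374 CPM, so the mock libraries were all above the test minimum and the GC7 libraries all below it. The mean was 128-fold lower with GC7 (42.2 ± 6.63 against 0.329 ± 0.0425 CPM), with a log2 fold change of -6.97 ± 0.178, and only 1 of the 11189 tested genes had a larger decrease. Over the 8 libraries, the protein-coding genes with log2 CPM most like that of *Itga7* were *mt-Co2* (Pearson r = 0.9996), *Il17ra* (0.9994), *Slc52a3* (0.9993), *Aplp1* (0.9993) and *Dera* (0.9992). These values describe mainly the gap between the groups, and 236 of 10191 protein-coding genes compared had r above 0.99.

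The beta3 and beta5 chains, which pair with alphaV in receptors for vitronectin and other matrix proteins, were both lower with GC7. *Itgb3* (ENSMUSG00000020689, chr11:104608000-104670476, plus strand) was at 79.5, 75.6, 83.6 and 78.9 CPM in mock and at 30.9, 28.7, 30.7 and 31.4 CPM in GC7 libraries. The libraries of each group lay close together, and *Itgb3* was 2.61-fold lower (79.4 ± 3.28 against 30.4 ± 1.2 CPM; log2 fold change -1.38 ± 0.0623). *Itgb5* (ENSMUSG00000022817, chr16:33829665-33949338, plus strand) was at 12, 13.4, 11.8 and 15.2 CPM in mock and at 5.04, 3.76, 6.16 and 4.45 CPM in GC7 libraries. The groups were separate, and *Itgb5* was 2.7-fold lower (13.1 ± 1.56 against 4.85 ± 1.02 CPM, log2 fold change -1.44 ± 0.147). A stretch of 343 bases of *Itgb5* was 99.7% identical to *Gm38317*, which was not tested. Beta3 also pairs with alphaIIb, the platelet fibrinogen receptor chain encoded by *Itga2b*, which was at 3.75 CPM in mock and 3.63 CPM in GC7 libraries on average. *Gp1ba*, another gene of the platelet list, was at 1.69 CPM in mock and 2.17 CPM in GC7 libraries on average. In the same list *Pf4*, *Ppbp* and *Gp6* had no read in any library, and *Gp9* had 2 reads in mock and 0 in GC7 libraries. The part of platelet RNA in *Itgb3* was not tested.

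**Figure D2:**
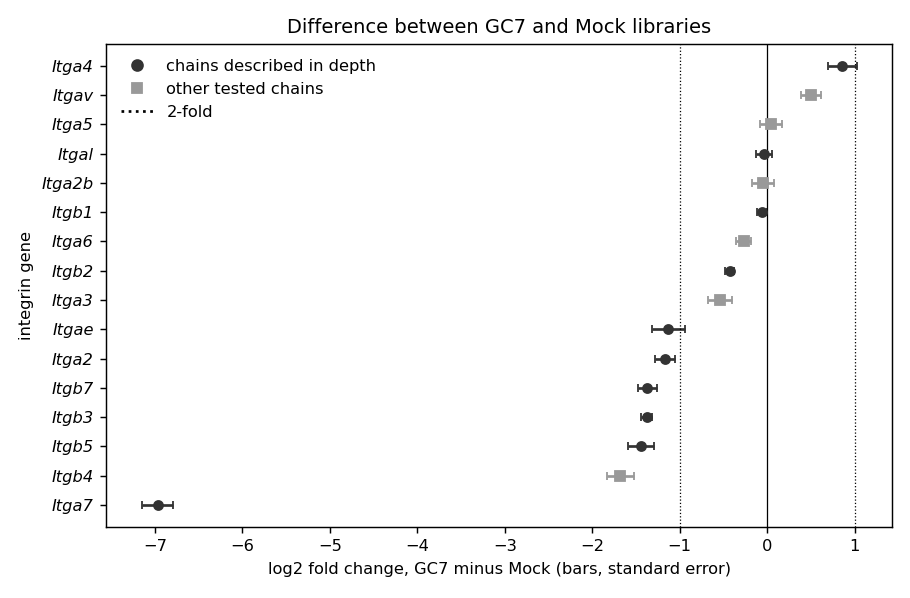
Log2 fold change (GC7 minus mock) of the 10 chains and of the 6 other tested chains, with bars of 1 standard error and dotted lines at 2-fold. *Itga7* stands at -6.97, while *Itgb3*, *Itgb5* and *Itgb7* lie together between -1.44 and -1.37.

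Promoter sequence was available for 5 of the 10 chains (*Itga2*, *Itga4*, *Itgb1*, *Itgb5* and *Itgb7*; not for *Itga7*, *Itgae*, *Itgal*, *Itgb2* and *Itgb3*). The 250 bases before the RefSeq start (GRCm38.p6) are shown for 3 chains that were lower with GC7 and for *Itga4*, which was higher, so that chains with opposite differences can be read side by side. Each is written 5′ to 3′ on the strand of the gene, with matches to a GC box (GGGCGG or its reverse complement CCGCCC) and to a RUNX motif (TGTGGT or ACCACA) in capitals; the windows are chr15:102231936-102232185 (minus strand) for *Itgb7*, chr13:114932101-114932350 (minus strand) for *Itga2*, chr16:33829415-33829664 (plus strand) for *Itgb5* and chr2:79255176-79255425 (plus strand) for *Itga4*.
Itgb7: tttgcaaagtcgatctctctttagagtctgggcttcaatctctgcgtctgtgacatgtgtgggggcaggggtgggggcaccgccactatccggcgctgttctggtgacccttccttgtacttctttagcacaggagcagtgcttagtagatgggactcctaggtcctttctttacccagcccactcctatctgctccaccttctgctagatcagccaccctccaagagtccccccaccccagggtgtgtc
Itga2: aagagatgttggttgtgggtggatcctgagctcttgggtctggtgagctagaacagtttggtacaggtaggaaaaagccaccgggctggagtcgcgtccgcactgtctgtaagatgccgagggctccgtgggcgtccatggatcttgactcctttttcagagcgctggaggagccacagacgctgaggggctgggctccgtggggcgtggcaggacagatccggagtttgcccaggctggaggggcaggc
Itgb5: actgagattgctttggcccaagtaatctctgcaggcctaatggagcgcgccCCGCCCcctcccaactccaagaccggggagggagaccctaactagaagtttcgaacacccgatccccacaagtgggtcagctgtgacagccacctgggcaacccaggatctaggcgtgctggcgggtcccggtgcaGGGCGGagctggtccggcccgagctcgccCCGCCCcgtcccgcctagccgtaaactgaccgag
Itga4: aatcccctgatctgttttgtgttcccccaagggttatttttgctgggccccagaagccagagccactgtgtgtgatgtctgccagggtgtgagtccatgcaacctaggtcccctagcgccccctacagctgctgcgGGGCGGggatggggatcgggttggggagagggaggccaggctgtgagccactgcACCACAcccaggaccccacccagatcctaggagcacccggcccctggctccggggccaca

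The *Itgb7* and *Itga2* windows held none of the motifs searched. The *Itgb5* window held 3 GC boxes, and the *Itga4* window held 1 GC box and 1 RUNX match, the latter on the minus strand 60 to 55 bases before the start. Over all 32851 promoter windows of this length, 32.7% held a GC box, 14% a RUNX match and 12% a match to the ETS motif (CCGGAA or TTCCGG), which none of the 5 integrin windows held. The fifth window, of *Itgb1*, held 1 GC box. GC content was 56% for *Itgb7*, 60.8% for *Itga2*, 64% for *Itga4*, 65.2% for *Itgb5* and 68% for *Itgb1*, beside a median of 52.4% over all windows. A match is only a match of letters.

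Levels were then compared between chains after division by the summed exon length of each gene (CPM per kilobase). In mock cells the order was *Itgb7* (278 ± 26.8, SD), *Itgb2* (145 ± 2.38), *Itgal* (67.5 ± 6.71), *Itgb1* (40.7 ± 1.4), *Itgb3* (13.5 ± 0.556), *Itga7* (5.22 ± 0.819), *Itgb5* (3.69 ± 0.438), *Itga2* (2.01 ± 0.238), *Itgae* (1.48 ± 0.172) and *Itga4* (1.16 ± 0.304). The ranges over libraries overlapped between *Itga2* and *Itgae* and between *Itgae* and *Itga4*, and the other neighbours were separate. In GC7-treated cells *Itgb7* (108 ± 15) and *Itgb2* (107 ± 3.44) overlapped at the top, followed by *Itgal* (65.4 ± 6.48), *Itgb1* (39.1 ± 1.67), *Itgb3* (5.16 ± 0.203), *Itga4* (2.11 ± 0.243) and *Itgb5* (1.36 ± 0.286). *Itga2* (0.887 ± 0.0776) and *Itgae* (0.666 ± 0.205) overlapped next, and *Itga7* was last at 0.0407 ± 0.00525. *Itga4*, last of the 10 in mock cells, was thus ahead of *Itgb5*, *Itga2*, *Itgae* and *Itga7* in GC7-treated cells.

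The summed per-length level of all 9 beta chains, *Itgb4*, *Itgb6*, *Itgb8* and *Itgb2l* included, was 482 ± 25.3 CPM per kilobase in mock and 261 ± 19.1 in GC7-treated cells, whereas the 18 alpha chains together gave 95.6 ± 8.38 and 88.7 ± 6.22. *Itgb7* made up 57.7% ± 2.44 of the beta total in mock and 41.1% ± 2.94 in GC7-treated cells. The share of *Itgb2* was 30.1% ± 1.62 and 41.3% ± 1.97, and that of *Itgb1* 8.47% ± 0.635 and 15% ± 0.791, so these 2 chains took a larger share with GC7 although neither was at a higher level. *Itgal* was the main alpha chain in both groups, at 70.6% ± 1.17 and 73.7% ± 2.2 of the alpha total. *Itga7* made up 5.55% ± 1.46 of the alpha total in mock and 0.0461% ± 0.00727 with GC7, and *Itga4* 1.21% ± 0.246 and 2.4% ± 0.433.

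**Figure D3:**
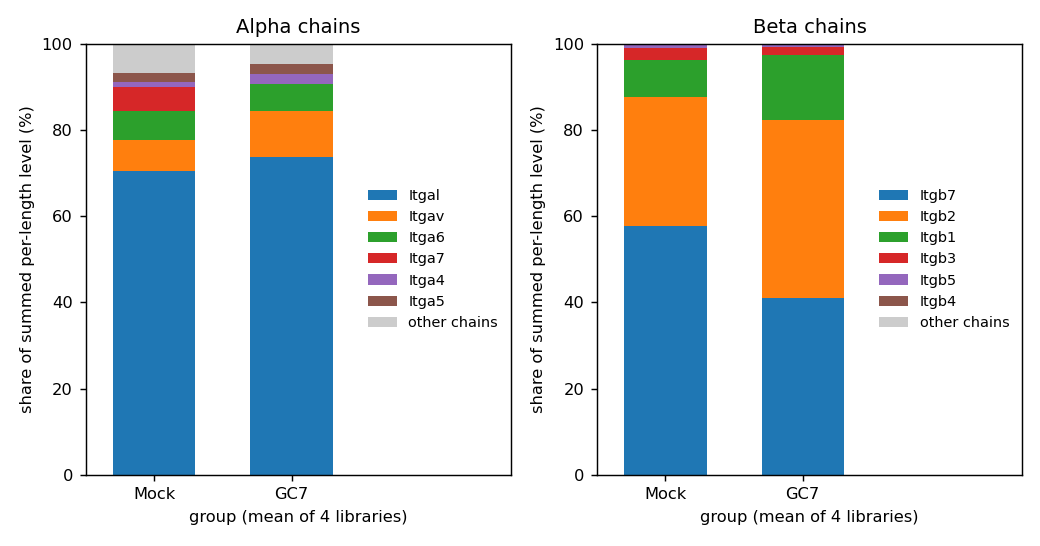
Share of each chain in the summed per-length level of all alpha chains (left) and all beta chains (right), in percent, as the mean of 4 libraries per group. *Itgb7* drops from 57.7% to 41.1% of the beta total, and the *Itga7* band of the alpha total is not visible with GC7.

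Ratios of alpha to beta mRNA per length, for chains whose proteins pair, followed from these differences. The *Itga4* to *Itgb7* ratio was 0.00427 ± 0.00136 in mock and 0.0201 ± 0.00569 in GC7-treated cells, 4.71-fold higher. The *Itgal* to *Itgb2* ratio was 0.466 ± 0.0474 and 0.608 ± 0.048, and the *Itga4* to *Itgb1* ratio 0.0286 ± 0.00747 and 0.0541 ± 0.00817, both without overlap between groups. The *Itgae* to *Itgb7* ratio was 0.00535 ± 0.000914 and 0.00612 ± 0.00138, with overlapping groups. The ratios to *Itgb1* were lower with GC7 for *Itga2* (0.0494 ± 0.00523 and 0.0227 ± 0.00177) and for *Itga7* (0.129 ± 0.0238 and 0.00105 ± 0.000158). In 3 further pairs, chosen after their values were seen, the beta chain was called lower and the alpha chain was not: the *Itgav* ratio was 3.7-fold higher over *Itgb3* (0.501 ± 0.0783 and 1.86 ± 0.109) and 3.9-fold higher over *Itgb5* (1.86 ± 0.428 and 7.23 ± 1.46), and the *Itga2b* ratio was 2.52-fold higher over *Itgb3*. mRNA ratios do not measure the receptors at the cell surface.

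**Figure D4:**
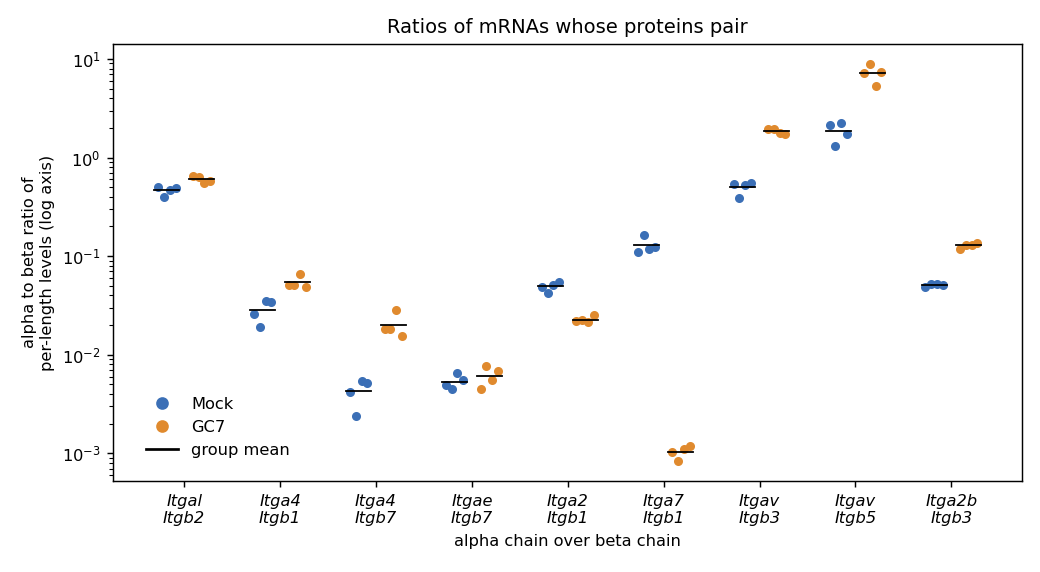
Ratio of alpha to beta mRNA per length in each library, on a log axis, for pairs of chains whose proteins form a receptor, with lines at the group means. GC7 points lie above mock for *Itga4* over *Itgb7* and for *Itgav* over *Itgb3* and *Itgb5*, and overlap for *Itgae* over *Itgb7*.

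Of the 17 remaining integrin chains, 6 were tested, and 2 fell and 1 rose with GC7 (median log2 fold change -0.16, beside 0.02 over all tested genes). Over all tested genes, 23.5% fell and 23.0% rose at the same FDR. These shares stand beside the counts of this list and of the lists below. All adjusted p-values here and below are from edgeR's quasi-likelihood test, adjusted over all 11189 genes. The lists were also chosen with earlier results of these data known, so these p-values are given as a description. *Itgb4*, which pairs with alpha6 in epithelial laminin receptors, fell from 4.39 ± 0.472 to 1.37 ± 0.156 CPM (log2 fold change -1.68 ± 0.153, adjusted p = 1.9e-06). It was over the 3 CPM minimum in the mock libraries only. *Itga3* fell from 9.21 ± 1.16 to 6.32 ± 1.02 CPM (-0.54 ± 0.139, adjusted p = 0.00498), a call lost when libraries were scaled by their totals (adjusted p = 0.0166) or when mock replicate 3 (0.0157), mock replicate 4 (0.019), GC7 replicate 1 (0.0143) or GC7 replicate 2 (0.0148) was left out. *Itgav*, the partner of beta3 and beta5, rose: it was at 78, 52.9, 80.3 and 79.5 CPM in mock and 110.2, 101, 99.8 and 99.7 CPM in GC7 libraries (0.50 ± 0.114, adjusted p = 0.00235). *Itga6* (-0.27, adjusted p = 0.0131), *Itga5* (0.04, 0.796) and *Itga2b* (-0.05, 0.769) did not pass the test. *Itga6* passed without mock replicate 2 (-0.34, adjusted p = 2.2e-04), without both libraries that stand apart (-0.35, adjusted p = 4.2e-05), with no count filter (adjusted p = 0.00656), with filterByExpr (0.00974) and with DESeq2 (0.00481). Among the 11 untested chains, *Itgb8* had no read, and *Itga1*, a collagen receptor chain like *Itga2*, had 20, 35, 21 and 27 reads in mock and 0, 6, 1 and 5 reads in GC7 libraries.

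Of 16 genes that bring integrins to the binding state, 14 were tested, and 6 fell and 1 rose with GC7 (median log2 fold change -0.08). *Rasgrp2*, an exchange factor that loads Rap1 with GTP, fell from 299 ± 29.2 to 79.4 ± 8.2 CPM (-1.91 ± 0.0908, adjusted p = 6.4e-09). *Fermt3*, the kindlin of blood cells, fell from 317 ± 19.9 to 175 ± 6.27 CPM (-0.86 ± 0.0628, adjusted p = 2.7e-07), and *Rap1a*, a Rap1 GTPase, fell from 245 ± 7.76 to 163 ± 6.03 CPM (-0.58 ± 0.0563, adjusted p = 3.0e-06), with the limit that 554 of its bases are 98.6% identical to the tested copy *Gm9392*. The talins went opposite ways. *Tln1*, the main talin of T cells, named after its values were seen, fell from 479 ± 41 to 322 ± 37.3 CPM (-0.57, adjusted p = 2.0e-04). The far less abundant *Tln2* rose from 3.18 ± 0.83 to 6.22 ± 0.879 CPM (0.98 ± 0.192, adjusted p = 8.3e-04). Mock replicate 2 of *Tln2* was under the 3 CPM minimum.

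Among genes that hold integrins inactive or turn Rap1 off, 7 of 8 were tested, and 4 fell and 1 rose (median -0.51). *Rap1gap2*, which returns Rap1 to its GDP form, fell from 25.4 ± 0.181 to 3.19 ± 1.07 CPM (-2.98 ± 0.166, adjusted p = 2.7e-08). GC7 replicates 3 and 4 of *Rap1gap2* were under the 3 CPM minimum. *Rasa3*, another GTPase-activating protein for Rap1, fell from 161 ± 7.12 to 71.9 ± 3.59 CPM (-1.17 ± 0.0611, adjusted p = 1.6e-08). *Flna*, the filamin that competes with talin for beta chain tails, fell from 461 ± 58 to 245 ± 44.9 CPM (-0.91 ± 0.127, adjusted p = 6.4e-05), and *Sipa1*, also a Rap1 GTPase-activating protein, from 244 ± 6.27 to 171 ± 10.2 CPM (-0.51 ± 0.0605, adjusted p = 1.6e-05). *Dok1*, outside the naming rule, was the gene called higher (0.39, adjusted p = 0.00442), and the call was lost when any one of mock replicates 1, 3 and 4 or GC7 replicates 1, 3 and 4 was left out, with adjusted p up to 0.0165.

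Linkers and kinases that couple integrins to actin and signalling numbered 22, of which 16 were tested, 8 fell and 2 rose (median -0.23). The largest difference was in *Bcar1*, which encodes the docking protein p130Cas, at 15.2, 13.8, 15.1 and 15.6 CPM in mock and 1.45, 0.996, 0.555 and 1.2 CPM in GC7 libraries (-3.80 ± 0.178, adjusted p = 5.7e-09). Only the mock libraries of *Bcar1* were over the 3 CPM minimum. *Nedd9*, the p130Cas relative of lymphocytes, rose from 49 ± 3.53 to 77.6 ± 11.2 CPM (0.66 ± 0.0999, adjusted p = 1.2e-04). *Zyx*, which encodes the focal adhesion protein zyxin, fell from 106 ± 14.4 to 68.2 ± 8.83 CPM (-0.63 ± 0.108, adjusted p = 3.1e-04), and *Vasp*, which aids actin filament growth, from 399 ± 20.9 to 269 ± 28.4 CPM (-0.57 ± 0.0805, adjusted p = 7.3e-05).

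Few genes of integrin ligands were abundant enough in these cultures to be tested: 5 of 19, of which 2 fell and 2 rose (median -0.23). *Cdh1*, which encodes E-cadherin, the ligand of alphaE-beta7, fell from 10.3 ± 0.451 to 2.58 ± 0.832 CPM (-1.98 ± 0.182, adjusted p = 1.9e-06). GC7 replicates 3 and 4 of *Cdh1* were under the 3 CPM minimum. The LFA-1 ligands went opposite ways, *Icam1* rising from 37.1 ± 3.16 to 67.2 ± 3.48 CPM (0.86 ± 0.074, adjusted p = 1.1e-06) and *Icam2* falling from 9.36 ± 1.51 to 5.33 ± 0.631 CPM (-0.81 ± 0.138, adjusted p = 3.2e-04). *Spp1*, which encodes osteopontin, a ligand of alphaV-beta3, rose from 3.99 ± 0.193 to 9.17 ± 1.46 CPM (1.20 ± 0.135, adjusted p = 1.1e-05). *Vcam1*, *Icam4* and *Lama1* had no read in any library. Of 10 membrane proteins that associate with integrins, 8 were tested and 1 fell (median 0.01): *Bsg*, which encodes basigin, went from 867 ± 70.4 to 331 ± 23 CPM (-1.39 ± 0.0781, adjusted p = 2.8e-08).

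TGF-beta signalling, which is known to raise *Itgae* in CD8+ T cells and whose latent form is freed by alphaV integrins, was covered by 17 genes, of which 16 were tested, 8 fell and 3 rose (median -0.20). *Runx3*, a transcription factor of the CD8 lineage, fell from 245 ± 17.5 to 125 ± 16.4 CPM (-0.97 ± 0.0937, adjusted p = 3.0e-06). Its relative *Runx1* fell from 10.9 ± 0.853 to 4.08 ± 0.982 CPM (-1.40 ± 0.156, adjusted p = 9.9e-06). GC7 replicate 3 of *Runx1* was under the 3 CPM minimum. *Smad3*, a mediator of TGF-beta receptor signals, rose from 9.12 ± 1.16 to 18.8 ± 1.31 CPM (1.05 ± 0.102, adjusted p = 3.1e-06). *Lrrc32*, which encodes GARP, the anchor of latent TGF-beta, fell from 126 ± 8.01 to 69.5 ± 11.6 CPM (-0.85 ± 0.107, adjusted p = 2.6e-05).

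**Figure D5:**
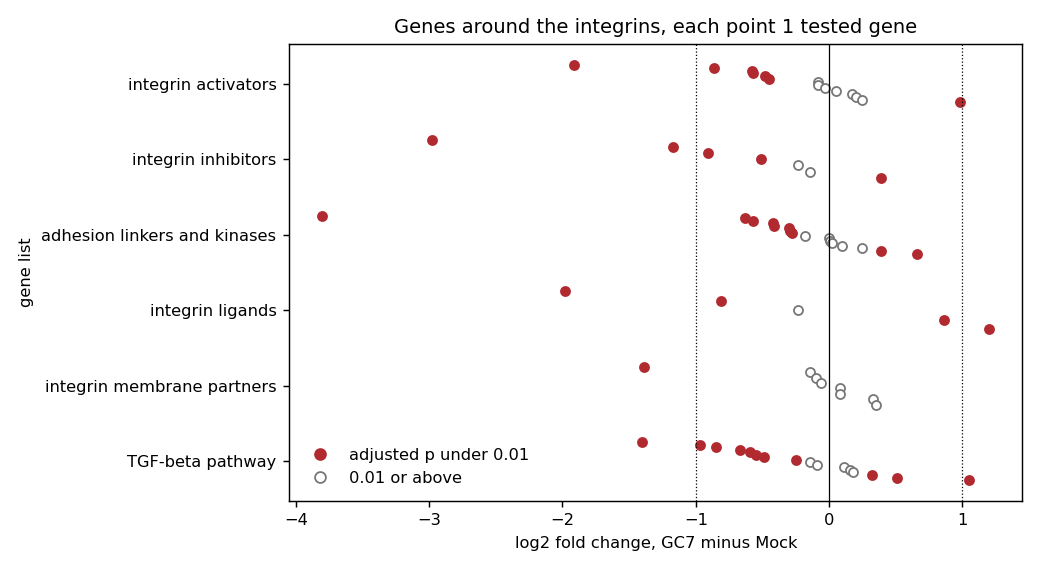
Log2 fold change (GC7 minus mock) of every tested gene in 6 lists around the integrins, filled where the adjusted p is under 0.01, with dotted lines at 2-fold. *Bcar1* at -3.80 and *Rap1gap2* at -2.98 lie farthest to the left, and *Spp1* at 1.20 farthest to the right.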

How the data were processed

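RNA-seq libraries were made from 4 mock and 4 GC7 cultures, and the groups were taken from the treatment labels. The authors deposited raw read counts per gene; the submitters' processing notes name cutadapt, STAR, featureCounts and edgeR, with the mouse genome GRCm38 and GENCODE M21 (Ensembl 96). The strand setting of the counting was not given in the sources used here.

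The test was limited to genes that reached 3 CPM in 4 or more libraries (11189 of 55536). Counts were scaled by TMM factors, and GC7 was compared with mock by the quasi-likelihood test of edgeR 4.0.16 (R 4.3.3), with Benjamini-Hochberg adjustment over all kept genes. Calls used an FDR of 0.01, with or without a 2-fold limit. CPM values are TMM-scaled, and each error is an SD over 4 libraries or an SE of the fit. Per-length levels used the union of exons of a gene. The procedure was also run on simulated counts in which far fewer genes differed and no library was made to stand apart. That setting is simpler than these data, and no result here rests on it. With a biological coefficient of variation of 0.0918 and 17528776 to 25284730 counts per library, genes that reached 3 CPM in fewer than 4 libraries were not tested. No libraries of a group differed by as little as sampling noise.

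The 10 chains and all gene lists were chosen with earlier results of these data known. The text names the 10 chains and the 5 protein-coding genes most correlated with *Itga7*. From each other list it names up to 4 genes with the largest absolute log2 fold change past the FDR. *Tln1*, *Dok1*, *Tgfbr2*, *Actn4*, *Parvg*, the cell type markers, the chains that were not tested or not called and 3 ratio pairs were named after their values were seen. Sequences sharing at least 200 bases at 90% identity were found with BLAST 2.17.0, and promoters came from RefSeq (GRCm38.p6). Alternatives were RLE factors, library totals, no count filter, edgeR's filterByExpr, a replicate term, limma-voom (limma 3.58.1), DESeq2 1.42.0, the ratio of raw counts for the pairs and leaving out each library.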

Additional observations from a re-analysis of the deposited data

Results flagged for a closer look

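The *Itga4* to *Itgb1* ratio of GC7 replicate 3 was set apart from the other GC7 libraries (0.0663 against 0.0487 to 0.0511): its gap to the nearest value made up 0.866 of the range of the group, above the critical value of Dixon's test for 4 values. The *Itgav* to *Itgb3* ratio of mock replicate 2 was set apart in the same way (0.385 against 0.528 to 0.553, a gap of 0.849 of the range). These were 2 of 38 groups of values examined, of which chance alone would give about 1.9.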

How the results depend on the processing

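The counts of the 10 integrin chains called (7 lower and 1 higher at the FDR, 6 and 0 with the 2-fold limit) were the same under every alternative run. The sign turned for *Itgal* with library totals (0.05) and without GC7 replicate 3 (0.01; -0.11 to 0.01 on leaving out single libraries) and for *Itgb1* with library totals (0.04). The differences in the pair ratios kept their direction, within the spread between libraries, whichever single library was left out; another length, or none, multiplies a ratio alike in both groups and cannot move its difference. Library totals moved the median log2 fold change of all genes from 0.02 to 0.11. With no count filter 1189 genes were lower and 773 higher by 2-fold, and with filterByExpr 1013 and 601, in place of 594 and 355, because more genes were tested (28350 and 14517).

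Counts for the other lists that moved by more than 1.5 times were these. Of the remaining integrin chains, 4 were lower by 2-fold with no filter and 2 with filterByExpr (1 in the report), 1 was higher by 2-fold with no filter (0), 1 was lower at the FDR with library totals, 6 with no filter and 5 with filterByExpr (2; 1 to 3 on leaving out single libraries), and 3 were higher with no filter and 2 with filterByExpr (1). Of the activators, 1 was higher by 2-fold with library totals and with limma-voom (0; 0 to 1 on leaving out single libraries), and at the FDR 3 were higher with library totals and 2 with no filter, with the replicate block and without mock replicate 2 and GC7 replicate 3 (1; 1 to 2 on leaving out single libraries); *Tln2* was the gene at the 2-fold limit. The inhibitors had 0 to 1 higher at the FDR on leaving out single libraries. The linkers had 2 lower and 2 higher by 2-fold with no filter and with filterByExpr (1 and 0), and 5 and 4 higher at the FDR (2). The ligands had 2 higher by 2-fold under both filters (1) and 4 higher at the FDR with no filter (2). The membrane partners had 2 lower with DESeq2 (1), and 1 higher with library totals and with no filter and 2 without mock replicate 2 and GC7 replicate 3 (0; 0 to 1 on leaving out single libraries, the 1 without mock replicate 2). The TGF-beta list had 1 to 2 lower by 2-fold on leaving out single libraries, *Runx3* crossing the limit. Some calls at the FDR were lost although the count of their list moved less. *Tgfbr2* was lost with library totals (adjusted p = 0.0817, edgeR quasi-likelihood test) and with the replicate block (0.0123). It was also lost on leaving out any single library but mock replicate 2 (up to 0.0206). *Actn4* of the linkers was lost in the same runs (0.0754, 0.0107 and up to 0.0301). *Parvg* of the linkers was lost with library totals (0.0147).

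The deviations of same-numbered libraries had correlations of -0.183 to 0.272, beside -0.310 to 0.416 for libraries of different number. With 4 libraries per group, these values cannot decide whether same-numbered cultures share a mouse, which the labels do not state. With the replicate block 2485 genes were lower and 2382 higher at the FDR, in place of 2635 and 2579, and the 10 chains kept their counts of 7 and 1. Leaving out mock replicate 2 and GC7 replicate 3 together, and using the length of the longest coding transcript, which left the order of the per-length levels as it was, were added after the data were seen. Depth limits the chains that reached 3 CPM in fewer than 4 libraries, for which no test was made.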

Other observations

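Some chains outside the test differed in their read counts. *Itgb2l*, a gene close in sequence family to *Itgb2*, had 9, 4, 7 and 9 reads in mock and 0, 0, 0 and 1 in GC7 libraries. *Itga10*, a collagen receptor chain, had 40, 38, 55 and 37 reads in mock and 53, 86, 64 and 90 in GC7 libraries. *Itgad* had 2, 0, 1 and 3 reads in mock and 9, 12, 5 and 17 in GC7 libraries. It shares 70 exon bases with *Cox6a2* on the opposite strand, which had up to 1562 reads, and reads of the pair cannot be told apart there. A stretch of 758 bases of *Itgad* was also 95.0% identical to *Itgax*, which was not tested. A stretch of 216 bases of *Itgad* was 93.5% identical to *Slc25a51*, which was tested. None of *Itgb2l*, *Itga10* and *Itgad* reached 3 CPM in 4 libraries, as the test required (*Itga10* did so in 3, all GC7). Their reads are given as counts only.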
